A study of Mus musculus with 41 samples.

Results

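The Il4 CNS1 5′ amplicon holds 8 of the 64 CpGs that the study's amplicons cover in the mouse Il4 locus, numbered CpG1 to CpG8 in the direction of the minus strand. These CpGs were chosen by place, with earlier results of these data known, as each CpG on the minus strand of chromosome 11 between 53440552 and 53440800 (mm9), read in every naïve and Th2 library, with 100 or more reads. IL-4 is the hallmark cytokine of type 2 helper T (Th2) cells, and CNS1 is a conserved noncoding sequence between Il4 and its neighbour Il13. TET enzymes oxidize 5-methylcytosine (5mC) in steps, first to 5hmC, the hydroxymethyl form, and then to the formyl form 5fC and the carboxyl form 5caC. Methylation can then be lost because oxidized bases are not copied at replication, or because thymine DNA glycosylase (TDG) removes 5fC and 5caC.

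The study followed DNA methylation of the Il4 locus while naïve CD4+ T cells of C57BL/6 mice became Th2 cells in culture, with and without TET proteins, TDG or GATA3. Naïve cells (CD4+CD25−CD62LhiCD44lo) were sorted from spleen and lymph nodes of mice aged 8–16 weeks. Bisulfite sequencing (BS) counted 5mC plus 5hmC, pyridine borane sequencing (PB) counted 5fC plus 5caC, and TAPS libraries, whose preparation the sources used here do not describe, were read as 5mC plus 5hmC. The 35 samples came from 31 libraries, because 4 libraries, by their names, had been run in duplicate.

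Wild-type cells gave 3 naïve and 3 Th2 BS libraries and 1 TAPS library of each kind. TET iTKO cells carried floxed alleles of Tet1, Tet2 and Tet3, Cre-ERT2 and a Rosa26 EYFP reporter, and TDG iKO cells carried floxed Tdg, Cre-ERT2 and a Rosa26 H2B-EGFP reporter, and cells with the reporter on were sorted. Tamoxifen (2 mg on 5 days) went to Cre-expressing mice and to controls alike, so it was shared within each line. The labels call these controls wild type, and the sources used here do not say which floxed or reporter alleles they had. This inducible Cre is not confined to T cells, and a reporter marks Cre activity, so some floxed alleles may have stayed intact in sorted cells. The authors measured the extent of deletion by qRT-PCR, and those values are not used here. Each of the 8 groups of these lines (TET WT, TET iTKO, TDG WT, TDG iKO, first and second cycle) had 2 BS libraries. TDG WT and TDG iKO first-cycle cells also had 1 PB library each, as did Cd4Cre Tdg-floxed cells (Tdg-KO), in which Cre starts in the thymus, and their wild type. For Gata3-KD, naïve cells with Rosa26 Cas9 were infected after 24 h with retrovirus carrying sgGATA3-1, sgGATA3-2 or no guide (Mock), and marked CD4+ cells were sorted on day 6, with 1 BS library each.

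In the first cycle, cells received plate-bound anti-CD3 and anti-CD28 (1 µg/ml), IL-4 (1000 U/ml) and anti-IFN-γ (1 µg/ml) for 2 days, then IL-2 (20 U/ml) for 3 days by the labels and 4 by the methods. In the second cycle they rested for 1 day, were stimulated again for 1 day and grew in IL-2 for 4 days. First-cycle and second-cycle cells therefore also differed in days in culture and in cell divisions. The authors speak of independent experiments, but the labels do not tie replicate numbers to experiments, mice or cultures, so each p measures the spread between samples. The reads came from PCR without molecular identifiers, and intervals from read counts cover counting error only.

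The amplicon is intergenic, 8381 bases from Il4 and 4026 bases from Il13, both of which are on the minus strand. Its minus strand (mm9, chr11:53440552-53440800) is written here 5′ to 3′, with each CpG in capitals.

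Il4 CNS1 5′ amplicon: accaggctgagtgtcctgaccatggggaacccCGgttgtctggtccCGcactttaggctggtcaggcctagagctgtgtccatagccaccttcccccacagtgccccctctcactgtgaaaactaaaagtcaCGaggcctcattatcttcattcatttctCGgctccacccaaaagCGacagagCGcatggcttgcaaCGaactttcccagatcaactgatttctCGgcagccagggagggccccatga

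CpG1 and CpG2 lie 14 bases apart, and a gap of 84 bases without a CpG separates them from CpG3. From CpG3 on the spacings were 28, 16, 8, 14 and 27 bases. GC content was 55.8%, against a median of 43.8% in 249-base windows of the chromosome, and only 3.89% of those windows held 8 or more CpGs. In this sequence GATA occurred once, on the plus strand, 9 bases after CpG3, and such a match is found in 71.5% of windows. GGAAA also occurred once, on the plus strand, 3 bases after CpG7 (56.1% of windows). TGANTCA had no match on either strand (7.24% of windows had one), nor had TGTGGT (18.2%), and no TTC was followed after 4 bases by GAA (6.76%). A letter match is a description and says nothing of binding.

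Depth at the 8 CpGs ran from 359 reads in the first TDG iKO first-cycle library to 34874 in the sgGATA3-2 library, so no CpG fell below the minimum. At the 59 cytosines outside CpGs between the primers, BS left 0.159% to 0.373% read as C on average, and this bounds failed conversion in the amplicon itself.

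In naïve cells all 8 CpGs were highly methylated, and only slightly unequal. Means over the 8 CpGs were 92%, 92.8% and 94.3% in the 3 libraries (93 ± 1.17, mean ± SD). CpG2 had the highest mean with 95.4%, 97% and 96.6%, and CpG3 was lowest with 84.3%, 87.5% and 88.6%. Outer CpGs (CpG1 and CpG2) stood above inner CpGs (CpG3 to CpG8) by 3.09 ± 0.112 points. The outer position was thus scarcely marked before differentiation: both outer CpGs lay above every inner CpG in 1 of 3 naïve libraries.

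The first cycle removed methylation mainly from the inner CpGs of wild-type cells and less from the outer CpGs. Means over the 8 CpGs in the Th2 libraries were 73.2%, 77.4% and 85.6%. CpG1 read 90.5%, 92.1% and 90.9%, against 93.1%, 93.4% and 96.5% in naïve cells, and CpG3 read 57.0%, 62.6% and 80.8%. Every CpG was lower in each Th2 library than in each naïve library, but the third Th2 library stood well above the other two at the inner CpGs. Such non-overlap held for 8 of 8 CpGs here and for 35 of 56 CpGs tested in the locus (62.5%). By the quasi-binomial test 7 of the 8 were called lower, where 33 of all 56 CpGs (58.9%) were called, and the median change was −16.9 points against −9.00 over all. CpG3 changed by −20.0 points (adjusted p = 0.00112), CpG4 by −17.4 (adjusted p = 8.61e-05) and CpG8 by −15.2 (adjusted p = 0.000638). CpG2 changed by only −5.37 points (adjusted p = 0.0305) and CpG1 by −3.14 (adjusted p = 0.217), the 1 CpG not called. A p that misses the threshold does not show that CpG1 was unchanged. Without naïve library 2, naïve library 3 or Th2 library 1, 6 CpGs were called.

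The wild-type controls of both lines had lost more by the end of the first cycle than the Th2 libraries above. Means over the 8 CpGs were 53.4% and 53.3% in TET WT and 65.5% and 68.5% in TDG WT. CpG3 fell to 30.3% and 30.0% in TET WT and 43.1% and 50.1% in TDG WT, while CpG1 kept 83.1%, 87.2%, 87.1% and 88.3%. TDG WT was the higher control at every inner CpG, without overlap, and 7 of 8 CpGs were free of overlap here as were 36 of 46 in the locus. CpG4 (18.4 points, adjusted p = 0.0384), CpG6 (18.3, adjusted p = 0.0474) and CpG8 (15.8, adjusted p = 0.0474) were called, 3 of 8, against 8 of 46 in the locus (17.4%), with medians of 16.1 and 8.02 points. That call was fragile, because 0 of the 8 were called when any 1 of the 4 libraries was left out. Both controls had tamoxifen, and whether the line or the culture made the difference cannot be told apart.

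The second cycle took the inner CpGs to low levels and removed more from the outer ones than the first cycle had. TET WT libraries had means of 33.1% and 22.2%, and TDG WT libraries 27.3% and 19.4%. CpG1 stood at 67.0%, 54.6%, 56.3% and 53.2%, CpG2 at 57.9%, 48.2%, 45.7% and 50.1%, and CpG3 at 14.8%, 9.41%, 12.8% and 4.90%. No second-cycle value reached any first-cycle value at any of the 8 CpGs, and groups were free of overlap at 38 of 46 in the locus. The test of second-cycle against first-cycle controls called a loss at 8 of 8 CpGs (38 of 46 in the locus, 82.6%), from −27.9 points at CpG3 (adjusted p = 3.91e-06) to −41.0 at CpG4 (adjusted p = 2.24e-08), with a median of −34.8 against −28.4 over all.

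Against naïve cells, the second-cycle wild type was lower at 8 of 8 CpGs (42 of 56 in the locus, 75.0%), by 36.6 points at CpG1 (adjusted p = 5.09e-09), 45.9 at CpG2 and 72.3 to 77.8 at CpG3 to CpG8. The median change was −76.4 points, over all CpGs −35.3. No tamoxifen is named for the naïve mice, so treatment and line changed together with differentiation in this contrast.

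Outer and inner CpGs lost methylation in both cycles, but the first cycle held a smaller share of the loss at the outer CpGs. With both wild-type controls together (n = 4 per cycle), CpG1 lost 7.91 points by the first cycle and 28.6 more in the second, and CpG2 lost 10.2 and then 35.7. CpG3 had the reverse order with 48.4 and then 27.9, while CpG4 lost 36.8 and then 41.0. The first cycle thus held 21.7% and 22.2% of the whole loss at CpG1 and CpG2, 63.5% at CpG3 and 47.2% to 56.6% at CpG4 to CpG8. The lines differed in this share, which was 27.4% and 30.9% at CpG1 and CpG2 in TET WT but 16.8% and 14.4% in TDG WT, and 60.4% against 34.6% at CpG4. In TDG WT, CpG4 to CpG8 all lost more in the second cycle, CpG4 with 27.5 and then 52.0 points. In each line the first-cycle share was smaller at both outer CpGs than at any inner CpG, and these shares were not tested. Another measure is the share of first-cycle methylation kept in the second. With both controls together CpG1 and CpG2 kept 66.9% and 58.6%, and the inner CpGs kept 27.3% to 33.6%. In bulk DNA, complete loss in some cells and partial loss in all cells cannot be told apart.

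The difference between outer and inner CpGs was present by the end of the first cycle in every replicated wild-type group. Outer minus inner was 21.2, 19.7 and 8.47 points in the Th2 libraries (16.5 ± 6.96), 34.8 ± 7.62 in the first-cycle controls and 38.2 ± 4.72 in the second-cycle controls. From the first to the second cycle it went from 40.9 to 39.0 in TET WT and from 28.7 to 37.3 in TDG WT. Both outer CpGs stood above every inner CpG in 15 of 15 BS libraries of replicated Th2 groups other than TET iTKO. CpG3 was lowest in 14 of those 15, the exception being Th2 library 3. CpG7 lay below CpG6 in 21 of the 22 BS libraries of replicated groups, but CpG4, CpG5 and CpG6 changed places between libraries of a group.

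Steps of level along the amplicon were tested with limma on within-library differences between neighbouring CpGs (the next minus the previous). The outer and inner lists had been set with earlier results of these data known. A p at CpG2 to CpG3 therefore does not independently locate the break. From naïve to second-cycle wild-type cells the step from CpG2 to CpG3 changed by −30.5 points (SE 4.80, adjusted p = 7.98e-05). This was the largest change in size among the 46 neighbouring pairs of the locus that could be tested. The next largest was 29.1 points (SE 2.09), so the order of the largest changes lies within their error. No pair of the exon 1 amplicon was among those tested. In all, 2 of the 7 pairs here were called, against 20 of 46 in the locus (43.5%), the other being CpG1 to CpG2 (−9.30 points, adjusted p = 0.00744). From CpG3 onwards no step was called. On the scale of log odds the same step changed by −1.26 log2 units and was not called (adjusted p = 0.0550, range over the alternatives 3.61e-05 to 0.0550). That p just missed the threshold and does not show the break to be absent on that scale.

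From naïve to Th2 libraries the CpG2 to CpG3 step changed by −14.6 points (SE 5.13, adjusted p = 0.0502), just past the threshold. None of the 7 steps was called by limma (7 of 46 in the locus, 15.2%), and 1 had an unadjusted p under 0.05. Without Th2 library 3, whose CpG3 level was high, the change was −20.6 points and was called (adjusted p = 0.00320, range 0.00320 to 0.763). Larger changes elsewhere in the locus were those of CpG29 to CpG30 (24.4), CpG62 to CpG63 (−23.8), CpG19 to CpG20 (23.1), CpG50 to CpG51 (16.6) and CpG18 to CpG19 (−16). From the first to the second cycle only CpG3 to CpG4 was called, 1 of 7 here and 6 of 37 in the locus (16.2%), with −13.2 points (SE 2.64, adjusted p = 0.00179). The CpG2 to CpG3 step itself changed by 7.79 points (SE 4.44, adjusted p = 0.326). CpG35 to CpG36 (−15.0), CpG32 to CpG33 (14.3), CpG36 to CpG37 (8.53) and CpG12 to CpG13 (−8.34) changed more than that.

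In TET iTKO cells the amplicon stayed near its naïve state. In percentage points the break between outer and inner CpGs was far smaller than in TET WT, but in log odds the CpG2 to CpG3 step was not called. Means over the 8 CpGs in first-cycle TET iTKO cells were 89% and 89.6%. CpG3 kept 82.8% and 81.4%, CpG4 91.7% and 90.4%, CpG2 98.7% and 94.5%, and CpG1 88.3% and 95.7%. Each of these was above both TET WT values, with the closest approach at CpG1 (TET WT 87.2%), and 48 of 60 CpGs in the locus were free of overlap. In the test 7 of 8 CpGs were called higher (36 of 60 in the locus, 60.0%), with a median of 41.5 points against 12.5 over all. CpG3 rose most (52.0 points, adjusted p = 1.79e-06), then CpG7 (46.6, adjusted p = 2.20e-06), and CpG2 rose by 13.6 (adjusted p = 0.000606). CpG1 was 6.90 points higher and not called (adjusted p = 0.0619), and without TET iTKO first-cycle library 1 all 8 were called.

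In the second cycle TET iTKO and TET WT lay further apart at outer and inner CpGs alike. TET iTKO means were 87.5% and 86.9%, with CpG1 at 90.6% and 89.4%, CpG2 at 93.7% and 89.8%, and CpG3 at 80.6% and 80.4%. No value of TET iTKO overlapped TET WT at any of the 8 CpGs, as at 52 of 60 in the locus. All 8 were called higher (42 of 60 in the locus, 70.0%), from 29.2 points at CpG1 (adjusted p = 5.84e-06) and 38.7 at CpG2 (adjusted p = 2.58e-07) to 70.1 at CpG5 (adjusted p = 7.21e-09), with a median of 68.7 against 26.2 over all.

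Outer minus inner was 6.65 ± 0.955 points in first-cycle and 4.93 ± 1.82 in second-cycle TET iTKO cells, against 40.9 ± 1.79 and 39.0 ± 0.136 in TET WT. In naïve cells it was 3.09 ± 0.112, below every TET iTKO library (3.64 to 7.33). First-cycle TET iTKO cells were not tested against naïve cells. The CpG2 to CpG3 step differed most between TET iTKO and TET WT among the 49 pairs tested, in both cycles. The difference was 38.3 points in the first (SE 6.28, adjusted p = 0.000215) and 29.7 in the second (SE 6.28, adjusted p = 0.00193). The next largest in size were 35.5 points (SE 4.25) in the first and −25.9 (SE 2.30) in the second, within the SE of this pair. CpG2 to CpG3 was the only 1 of the 7 pairs called in either cycle, where 9 of 49 (18.4%) and 10 of 49 (20.4%) were called in the locus. On the log-odds scale it was not called, with 0.577 log2 units in the first cycle (adjusted p = 0.640, range 0.000102 to 0.640) and 1.62 in the second (adjusted p = 0.107, range 0.00120 to 0.107).

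TET iTKO cells showed a small deficit against naïve cells, but no CpG was called in the main test. After the second cycle every CpG was lower in both libraries than in all 3 naïve libraries, as 35 of 54 CpGs in the locus were free of overlap (64.8%). The differences were −4.32 points at CpG1 to −7.95 at CpG8 (median −5.69 against −1.34 over all), with adjusted p from 0.0719 to 0.358. Thus 0 of 8 were called by the quasi-binomial test (12 of 54 in the locus, 22.2%), 4 had an unadjusted p under 0.05, limma called 2 (15 of 54 in the locus), and the test with only these groups in the fit called 7 (26 of 54). The deficit was smaller at CpG1 and CpG2 (−4.32 and −4.57 points) than at any inner CpG. No break between neighbours was called, with 0 of 7 steps by limma (13 of 45 in the locus, 28.9%) and 0 at unadjusted p under 0.05, with −1.68 points for CpG2 to CpG3 (adjusted p = 0.870), and 0.120 without TET iTKO second-cycle library 1 (adjusted p = 0.988, range 0.564 to 0.988). Cells that escaped full deletion and a TET-independent loss would both give such a deficit and cannot be told apart by these levels. Treatment and line also changed together with differentiation in this contrast. Between the cycles of TET iTKO 0 of 8 CpGs were called (7 of 60 in the locus, 11.7%), 0 at unadjusted p under 0.05 and 1 by limma, with changes of 0.276 points at CpG6 to −4.83 at CpG2 (median −2.21 against −1.32).

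TDG iKO cells lost methylation at these CpGs much as their controls did. First-cycle TDG iKO libraries had means of 59.7% and 66.8%, against 65.5% and 68.5% in TDG WT. CpG3 read 32.7% and 49.4%, CpG4 54.7% and 65.8%, and CpG1 88.9% and 89.5%. The first TDG iKO library was lower than both controls at the inner CpGs while the second overlapped them, and CpG1 was slightly higher without overlap (1 of 8, with 14 of 46 in the locus). All 6 inner CpGs had lower means in TDG iKO, with differences of −3.11 to −7.68 points. The quasi-binomial test called 0 of 8 CpGs (0 of 46 in the locus, 0%), with 0 at unadjusted p under 0.05 and 0 by limma, changes of −7.68 points (CpG4) to 1.49 (CpG1), and medians of −4.49 and −2.09. A missed threshold with 2 libraries per group does not show equality, and a loss of several points would have gone unseen at the inner CpGs.

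In the second cycle TDG iKO means were 24% and 23.7%, between the TDG WT means of 27.3% and 19.4%. CpG1 read 55.1% and 53.2%, CpG2 45.0% and 43.4%, and CpG3 9.20% and 12.2%, and only at CpG2 were both TDG iKO values below both controls (45.7% and 50.1%), where 24 of 63 CpGs in the locus were free of overlap. Again 0 of 8 were called (0 of 63 in the locus, 0%), 0 at unadjusted p under 0.05 and 0 by limma, with changes of −3.71 points at CpG2 to 3.01 at CpG6 and medians of 0.872 and 0.609. Between its cycles TDG iKO lost methylation at 8 of 8 CpGs (37 of 46 in the locus, 80.4%), from −30.3 points at CpG3 (adjusted p = 0.000103) to −44.8 at CpG2 (adjusted p = 2.60e-07), with medians of −41.2 and −31.5.

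The outer–inner break was present without TDG as well, with 34.4 ± 6.90 points in the first and 33.8 ± 1.42 in the second cycle. Its CpG2 to CpG3 step differed from TDG WT by −5.21 points in the first cycle (adjusted p = 0.864) and 5.59 in the second (adjusted p = 0.998). Here limma called 0 of 7 pairs in either cycle (0 of 37, 0%, and 0 of 51, 0%, in the locus), and none had an unadjusted p under 0.05. The sign of that small difference depended on single libraries. It became 0.663 without TDG WT first-cycle library 2 (adjusted p = 0.972) and 3.60 without TDG iKO first-cycle library 1 (adjusted p = 0.910, range over the first-cycle alternatives 0.113 to 0.972). In the second cycle it became −0.539 without TDG WT library 2 (adjusted p = 0.999, range 0.755 to 0.999).

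The effect of losing TET and of losing TDG was also compared directly, as a difference of differences in the second cycle. At all 8 CpGs the TET effect was the larger (38 of 60 in the locus, 63.3%), by 29.8 points at CpG1 (adjusted p = 0.000140), 42.4 at CpG2 (adjusted p = 7.46e-06) and 69.6 at CpG5 (adjusted p = 7.46e-06), with a median of 66.2 against 24.6 over all. These p values test the difference of effects in log odds, while the points come from mean levels. For steps, 0 of 7 were called by limma (7 of 49 in the locus, 14.3%). CpG2 to CpG3 had 24.1 points (SE 8.88) and CpG1 to CpG2 12.6 (SE 4.72), both with adjusted p = 0.0984 and both under 0.05 before adjustment, and only CpG29 to CpG30 (−28.5) was larger than the first of them. The contrast sets 3 deleted genes against 1, and the extent of deletion is not part of the values used here.

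In the TDG iKO library PB showed a build-up of 5fC and 5caC at CpG3 to CpG7, with little at CpG8 on the minus strand. In the TDG WT library the 8 CpGs averaged 0.496%, little above the 0.311% of cytosines outside CpGs. In the TDG iKO library CpG1 and CpG2 read 0.200% and 0.631%, while CpG3, CpG6 and CpG7 read 3.21% (95% interval 2.84 to 3.54), 3.09% and 5.00% (4.45 to 5.52), with CpG4 at 1.49%, CpG5 at 1.65% and CpG8 at 0.865%. CpG1 was thus lower than in TDG WT (0.731%), and all inner CpGs were higher. Differences of 1 point or more with intervals apart were found at 5 of 8 CpGs, CpG3 to CpG7, against 16 of 47 in the locus (34.0%), with medians of 1.23 and 0.428 points. With C reads not halved these counts were 3 of 8 and 10 of 47. There was 1 library per genotype, so no test was made and spread between animals is unknown.

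Tdg-KO cells from Cd4Cre mice had more of these bases than TDG iKO cells at each of the 8 CpGs on the minus strand, and gained them at CpG2 and CpG8 as well. Their wild type averaged 0.424% and the Tdg-KO library 4.97%, with 2.03% at the outer and 5.96% at the inner CpGs. CpG6 was highest with 9.12% (8.20 to 10.1), then CpG7 with 8.37% and CpG3 with 5.68%, and CpG1 was lowest with 0.975%. CpG2 to CpG8 passed the threshold, 7 of 8 against 23 of 47 in the locus (48.9%), with medians of 4.53 and 0.961 points. Each knockout had 1 library, and the PB conversion measured by the authors is not used here. Line and conversion therefore cannot be told apart between the knockouts. Over the 8 CpGs, levels of the TDG iKO and Tdg-KO libraries had r = 0.886 and rho = 0.905 (n = 8 CpGs, the same sequence and amplification in both). The PB level of TDG iKO against the BS points lost from naïve to TDG iKO first-cycle cells had r = 0.745 and rho = 0.905 (n = 8), and that of Tdg-KO r = 0.692 and rho = 0.762, values that share the contrast of outer with inner CpGs.

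On the plus strand the same CpGs also gained T reads, but not in the same order. Outer CpGs again had little in the TDG iKO library (0.389% and 0.294%), and CpG3 to CpG8 had 2.73% to 5.90%. At CpG3 Tdg-KO (2.32%) lay below TDG iKO (2.81%) on this strand, and at the other CpGs it lay above. CpG8 was the most unequal, with 0.865% on the minus and 5.90% on the plus strand in TDG iKO and 2.63% and 8.60% in Tdg-KO. On the plus strand 6 of 8 CpGs passed the threshold in each knockout, CpG3 to CpG8, against 20 of 47 in the locus in TDG iKO and 24 of 47 in Tdg-KO. Levels of the 8 CpGs on both strands of a library had only r = 0.171 (TDG iKO) and r = 0.306 (Tdg-KO), each with rho = 0.167. Mean levels were lower at outer than at inner CpGs on both strands of both knockouts, although on the minus strand of Tdg-KO CpG2 (3.09%) lay above CpG8 (2.63%).

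TAPS, in which the modified base is the one converted, also separated outer from inner CpGs on the minus strand. The naïve library averaged 92.2% and the Th2 library 55.3%, with CpG1 and CpG2 at 81.3% and 80.9% and CpG3 at 34.2% in Th2. Outer minus inner was 34.3 points in that library. On the plus strand of the Th2 library CpG1 (89%) lay above every inner CpG (48.9% to 63.4%), but CpG2 (41.1%) lay below them all and had read 33.4% in naïve cells. On the minus strand, falls of 10 points or more with intervals apart were seen at 8 of 8 CpGs (38 of 47 in the locus, 80.9%), from −12.3 points at CpG2 to −59.1 at CpG3, with medians of −38.6 and −29.4. The Th2 TAPS library lay 9.90 (CpG1) to 34.2 points (CpG7) below the mean of the Th2 BS libraries, nearer to the controls of the TET line, and assay and culture cannot be told apart there.

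Both libraries with a Gata3 guide had more methylation at the inner CpGs than the Mock library. The Mock library averaged 52.1%, sgGATA3-1 66.9% and sgGATA3-2 68.2%. Means of untargeted first-cycle wild-type libraries differed by more than this, from 53.3% in TET WT to 85.6% in Th2 library 3. With 1 library each, no test was made, and spread between cultures could give such a shift. CpG3 read 30.1%, 44.9% and 45.6%, CpG4 46.8%, 67.4% and 71.2%, and CpG1 85.2%, 92.2% and 90%. Every CpG was higher with both guides than in Mock. Rises of 10 points or more with intervals apart were found at 6 of 8 CpGs for sgGATA3-1 (29 of 64 in the locus, 45.3%) and at 6 of 8 for sgGATA3-2 (29 of 64, 45.3%), CpG3 to CpG8 in both, with medians of 14.3 against 8.80 points and 16.3 against 8.41. The guides share the Mock library, so their likeness is not independent.

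CpG4 and CpG6 rose most with either guide, by 20.6 and 22.7 points for sgGATA3-1 and 24.4 and 24.1 for sgGATA3-2. CpG3, the lowest CpG, rose by 14.8 and 15.6. The outer CpGs rose by 4.82 to 9.05 points, below the threshold but most of a small gap, as CpG1 regained 76.6% and 52.7% of its distance from Mock to naïve. CpG3 regained 26.2% and 27.4% of it, while CpG4 (42.2% and 50.1%) and CpG6 (45.9% and 48.8%) came nearer to the outer CpGs. Outer minus inner was 41.6 points in Mock and 32.5 and 28.6 with the guides, where untargeted TDG WT first-cycle cells had 28.7. With neither guide was the break as small as in TET iTKO cells, and the level of GATA3 is not part of the values used here.

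CpG9 to CpG17, the remaining CpGs of CNS1, had means between those of the outer and inner CpGs in wild-type Th2 cells. Their means were 92.4% in naïve cells, 65.7 ± 8.20 in the first-cycle controls and 30.1 ± 5.41 in the second-cycle controls, where the outer CpGs had 54.1 ± 5.57 and the inner CpGs 16 ± 6.62. A mean over CpG9 to CpG17 does not show how those CpGs differ among themselves.

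These are bulk levels from amplified DNA, and groups held 2 to 4 libraries, or 1 for PB, TAPS and Gata3-KD. The break between CpG2 and CpG3 coincides with the longest gap without a CpG in the amplicon, and whether that spacing, the underlying sequence or a bound protein sets it was not tested. BS does not separate 5mC from 5hmC, so a CpG that has been oxidized once still counts as methylated. The CpG2 to CpG3 step was called in percentage points for naïve against second-cycle wild type and for TET iTKO against TET WT in both cycles. It was not called for naïve against Th2 or TET minus TDG. In log odds it was called in none of these, and for TET iTKO against TET WT in the first cycle it was far from the threshold. It describes 8 CpGs of 1 amplicon at the ends of 2 culture cycles, and the order of events within the first cycle was not sampled.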

How the data were processed

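Processed count tables were analysed as deposited: the authors had mapped reads to mm9 with BSMAP and gave, per cytosine, the count of C reads and of C plus T reads. BS level was 100 × C/(C + T), PB level 100 × T/(T + 0.5 × C), and TAPS level 100 × T/(C + T). The tables stop at 65535 reads, a limit not reached at these CpGs. Reads of duplicate runs, inferred from library names, were summed for tests and their levels averaged.

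Differences were tested per CpG with a quasi-binomial model (Williams weights, dispersion moderated across CpGs and at least 1, F test) fitted to 22 libraries in 10 groups, in R 4.3.3. This model works in log odds, and the points given beside its p values are differences of mean levels. Steps between neighbouring CpGs used limma 3.58.1. Adjusted p values (Benjamini–Hochberg) cover all Il4 CpGs or pairs tested, and those under 0.05 are called. Single libraries were compared by Wilson 95% intervals. All 8 CpGs and 7 pairs may be named, and elsewhere only the mean of CpG9 to CpG17 and pairs whose step changed more than that of CpG2 to CpG3. The CpGs and their outer and inner lists were chosen with earlier results of these data known. Means over CpGs are descriptions without a test.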

Additional observations from a re-analysis of the deposited data

Results flagged for a closer look

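For the TET effect minus the TDG effect in the second cycle, 8 of 8 CpGs were called higher, by 29.8 to 69.6 points (38 of 60 in the locus, 63.3%). On the plus strand of the PB libraries, 6 of 8 CpGs were higher in TDG iKO than in TDG WT (CpG3 to CpG8, with 20 of 47 in the locus), and 6 of 8 were higher in Tdg-KO from Cd4Cre mice than in their wild type (24 of 47 in the locus).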

How the results depend on the processing

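Over 46 results, 307 alternatives were run, and 279 stayed within the tolerance: a count within 1.5 times the main count, a tested step with the same sign and side of the threshold, or a mean moved by less than 1 SD between libraries. Counts of called CpGs stayed at 6 or more of 8 under every alternative for naïve against Th2 (6 to 7 when single libraries were left out), and at 8 for naïve against second-cycle wild type, for the cycles of wild type and of TDG iKO and for TET minus TDG. TDG stayed at 0 in both cycles. Single libraries left out gave 7 to 8 for TET in the first cycle, 8 for TET in the second and 0 for TET iTKO against naïve or between its cycles.

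A block for replicate number, with only the compared groups in the fit, gave 0 called for TET in the first cycle (0 of 60 in the locus) and 8 in the second, and why they differ was not tested. The labels do not say that a replicate number marks a shared experiment. Deviations of naïve and Th2 libraries with the same number had correlations of 0.0592, −0.0938 and −0.0200, and groups of 2 libraries share only a number (TDG 0.592 and 0.347, TET −0.261 and −0.0342). Set side by side by number, all 6 inner CpGs were lower in TDG iKO in both first-cycle pairs, and 0 were called with the block.

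TET iTKO second cycle against naïve had 2 called by limma 7 with only the compared groups fitted and 0 with the block added (0 of 54 in the locus), and TET iTKO between cycles had 1 by limma. TDG WT against TET WT, with 3 in the test, had 0 by limma, 6 with only these groups, 6 with the block, 6 with runs apart and 0 to 0 with single libraries left out.

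The CpG2 to CpG3 step from naïve to Th2 was −14.6 with a minimum of 20 reads (adjusted p = 0.0486) and −14.6 with runs apart (adjusted p = 0.0419), in a range over the alternatives of 0.00320 to 0.763, and −20.6 to −11.4 with single libraries left out. On log odds it was −1.26 for naïve against second-cycle wild type, 0.577 and 1.62 for TET, and 0.516, reversed, for TET iTKO against naïve. With single libraries left out it was −33.5 to −27.4 for naïve against second-cycle wild type, 4.73 to 10.9 between wild-type cycles, 37.0 to 39.7 and 27.5 to 31.9 for TET, 18.0 to 30.2 for TET minus TDG, −14.0 to 3.60 and −0.539 to 11.7 for TDG (reversed at 0.663, 3.60 and −0.539) and −3.49 to 0.120 for TET iTKO against naïve (reversed at 0.120).

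PB in TDG iKO had 3 called with C reads not halved, and each Gata3 guide had 2 called with a minimum of 20 points. Means weighted by reads were 52.4% (TET WT, first cycle, unweighted 53.3%) and 23.2% (TDG iKO, second cycle, unweighted 23.8%). The cause of these changes was not tested.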

Other observations

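On the plus strand of the naïve TAPS library CpG2 read 33.4%, where its minus strand read 93.2%, and CpG6 read 68.2%. In the Th2 TAPS library CpG2 read 41.1% on the plus strand. The cause was not tested.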
